A study of Mus musculus with 12 samples.

Results

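The C-type lectin receptors described here are 9 genes of the dendritic cell (DC) surface: Clec4e, Clec4d, Clec4n, Clec7a, Clec5a, Mrc1, Clec10a, Cd209a and Ly75. Their members are the probe sets whose annotation names exactly 1 gene, and that gene one of these 9, which gave 11 probe sets for the 9 genes, of 18193 genes so annotated and 45037 non-control probe sets on the array. Of the 11, 10 passed the filter on low signal and were tested among 22519 probe sets. The only one that did not pass was that of Cd209a. Clec4e and Clec4n have 2 probe sets each, so the 10 tested probe sets stand for 8 genes.

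C57BL/6 marrow was grown into DC with GM-CSF at 10 ng/ml for 6 days. The DC then received poly(I:C), a man-made RNA duplex that stands in for viral RNA, at 2.5 μg/ml. RNA was taken before it (0 h) and after 1, 3, 6, 12 and 24 h, and each time was measured on 2 Affymetrix arrays, 1 in each of 2 experiments. All groups share the strain, the GM-CSF culture and, per the methods of the study, female mice, the selection of CD11c positive cells and the use of 1 mouse for all DC of an experiment. The labels give the age both as 3 to 4 months and as 8 to 10 weeks, and the methods of the study give higher concentrations of GM-CSF and of poly(I:C) than the labels do. The 0 h cells are the untreated cells. No untreated culture of a later time was analysed here, so the effect of poly(I:C) and that of time in culture cannot be told apart.

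C-type lectin receptors carry a fold that in many of them binds sugars in the presence of calcium. In DC and macrophages they serve as sensors of fungi, mycobacteria and dead cells, or as endocytic receptors that deliver glycoproteins to the compartments where antigens are processed. The sensors signal through immunoreceptor tyrosine-based activation motifs (ITAM), which some carry in their own tail and others borrow from the adaptors Fcer1g or Tyrobp, and these recruit the kinase Syk. The endocytic group, with Mrc1, Clec10a, Cd209a and Ly75, has tails that direct internalisation.

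The signal is the MAS5.0 intensity, in arbitrary units on a linear scale. Fold changes are differences in log2(signal + 16) from limma, with a term for the experiment, and each is given with its standard error (SE) and with p adjusted by Benjamini-Hochberg over all tested probe sets. Calls of higher or lower were made at an adjusted p under 0.05. Signals of different probe sets are not on a common scale, so levels were compared only within a probe set. In bulk RNA, fewer cells of a type and less RNA per cell cannot be told apart.

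At 1 h no member was called in either direction, against 0.0533% of all tested probe sets called higher and none called lower, and 3 of the 10 member probe sets were higher in limma at an unadjusted p under 0.05, against 1.18% of all tested probe sets. These 3 were both probe sets of Clec4e and 1 of Clec4n, so they stand for 2 genes only. At 3 h, 2 member probe sets were called higher, both of Clec4e, against 1.01% of all tested probe sets. At 6 h, 2 were higher and 1 lower, against 3.61% and 1.91%. At 12 h, 4 were higher and 1 lower, against 9.16% and 18.4%, and at 24 h 3 were higher and 3 lower, against 9.09% and 17.2%. Both probe sets of Clec4e were among those higher at 6, 12 and 24 h. The others were Ly75 and Clec4n at 12 h and Clec4d at 24 h. By gene, 3 of 8 were higher and 1 lower at 12 h, against 10.4% and 20.2% of all tested genes. At 24 h, 2 genes were higher and 3 lower, against 11.3% and 16.8%. Each of these comparisons used the same pair of 0 h arrays. The median log2 change of the 8 tested genes was 0.24 at 12 h and 0.26 at 24 h. That of all tested probe sets was -0.22 and -0.18 at the same times. The middle genes were Clec4d and Clec7a at 12 h, and Clec4n and Clec7a at 24 h. Under quantile normalization the former had -0.22 and 0.02 at 12 h, against a median of -0.08 for all. The latter had -0.25 and -0.05 at 24 h, against -0.05 for all. The difference between the medians thus rests on genes whose changes depended on the scaling.

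**Figure D1:**
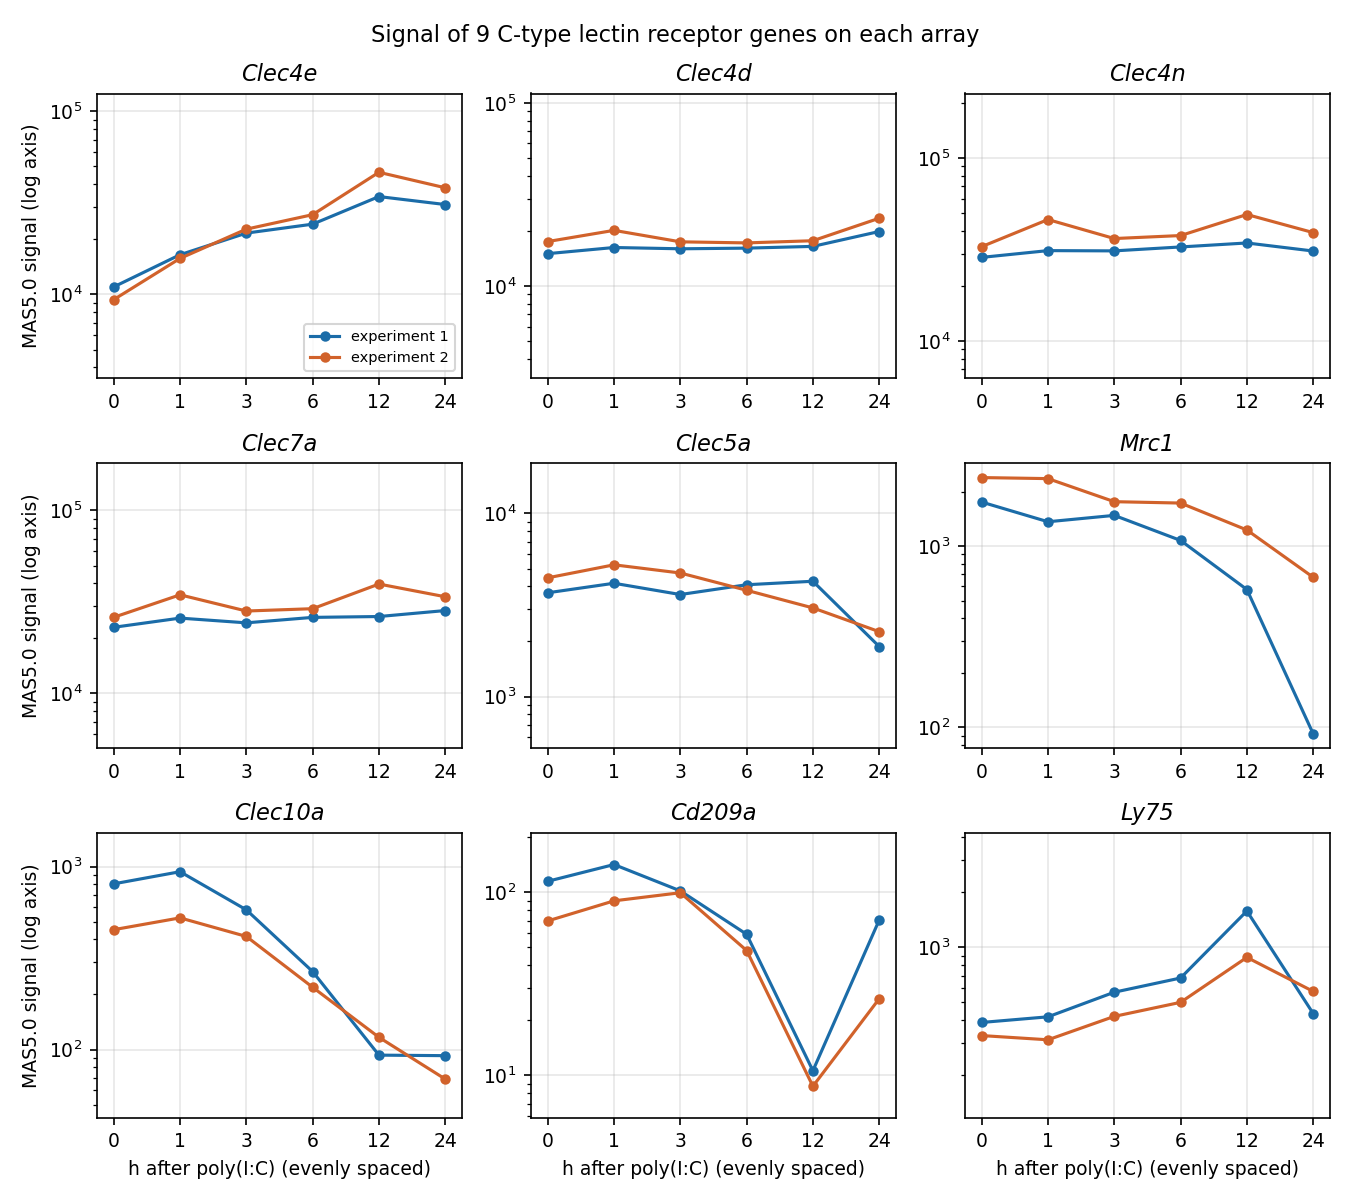
Signal of the lead probe set of each of the 9 receptors (vertical axis, linear MAS5.0 units on a log scale) before poly(I:C) and up to 24 h after it. The points are single arrays, and each line joins the arrays of 1 experiment. Clec4e climbed to 34244 and 46481 at 12 h, Mrc1 and Clec10a were lowest at 24 h, and Ly75 was highest at 12 h.

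Among the sensors, Clec4e was the first to be called, at 3 h, and it was still higher at 24 h. Clec4e encodes Mincle, which binds the mycobacterial glycolipid trehalose dimycolate and the nuclear protein of dying cells Sap130 and signals through Fcer1g. Its signal in experiment 1 was 10995 at 0 h, 16483 at 1 h, 21630 at 3 h, 24202 at 6 h, 34244 at 12 h and 30978 at 24 h. In experiment 2 it was 9370, 15735, 22732, 27272, 46481 and 38251 at the same times. The arrays of every later time lay above both 0 h arrays, and in both experiments the order of the times was the same, with the highest signal at 12 h. At 12 h Clec4e was 3.93-fold higher than at 0 h (log2 change 1.97, SE 0.17, adjusted p = 3.17e-05), and at 24 h the log2 change was 1.76 (adjusted p = 7.39e-05). The changes at 6 h (log2 change 1.34, adjusted p = 0.000945) and at 3 h (1.13, adjusted p = 0.00711) were also called.

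The other probe set of Clec4e gave the same calls. It had 12180 and 16112 at 12 h, against 2825 and 2208 at 0 h, a log2 change of 2.48 (SE 0.24, adjusted p = 8.46e-05), and 1.70 at 24 h (adjusted p = 0.000848). At 1 h the lead probe set was higher by 0.67 without passing the test (adjusted p = 1). The calls of the lead probe set at 6, 12 and 24 h were kept in all 22 alternative analyses. That at 3 h was kept in 17 of 22, and was lost with no replicate block (adjusted p = 0.0863), with no intensity trend, and on leaving out the 0 h array of experiment 2 or either array of 3 h, with a highest adjusted p of 0.138. None of the steps between 1 and 3 h, 3 and 6 h, 6 and 12 h, or 12 and 24 h was called for Clec4e, so the levels of neighbouring times were not separated by the test.

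Clec4e lies on chromosome 6 next to Clec4d and Clec4n. In the RefSeq order of GRCm38.p6 the genes follow each other as Clec4a4, Clec4b1, Clec4a2, Clec4b2, 2 pseudogenes, Clec4n, Clec4d and Clec4e. The 250 bases before the RefSeq start of Clec4e (chr6:123289872-123290121, minus strand) and of Clec4d (chr6:123261857-123262106, plus strand) are shown because these neighbours differed in their time courses. Capitals mark matches to GAGGAA, the core of sites of the myeloid factor PU.1 and its ETS relatives, or to TTGCNNAA, a C/EBP site.

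Clec4e: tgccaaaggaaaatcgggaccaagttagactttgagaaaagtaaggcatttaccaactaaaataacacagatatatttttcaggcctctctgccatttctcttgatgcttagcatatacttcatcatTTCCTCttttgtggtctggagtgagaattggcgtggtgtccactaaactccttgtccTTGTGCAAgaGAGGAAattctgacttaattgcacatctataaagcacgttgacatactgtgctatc
Clec4d: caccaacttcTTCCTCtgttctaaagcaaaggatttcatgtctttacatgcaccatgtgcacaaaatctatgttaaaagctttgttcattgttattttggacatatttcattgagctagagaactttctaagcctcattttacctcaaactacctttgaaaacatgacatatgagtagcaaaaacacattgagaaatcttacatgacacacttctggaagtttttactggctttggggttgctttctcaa

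Motifs were searched on both strands of these windows: GAGGAA, TTGCNNAA, GAAANNGAA, the core of the interferon-stimulated response element, and the AP-1 site TGANTCA. The Clec4e window held GAGGAA 2 times, with the first base 123 and 56 bases before the start, and TTGCNNAA 1 time, 66 bases before the start, as TTGTGCAA. The Clec4d window held GAGGAA 1 time, 240 bases before the start. Of 32851 promoter windows of the same length, 23.3% hold GAGGAA, 9.56% TTGCNNAA, 7.13% GAAANNGAA and 6.75% TGANTCA. No window of a member held GAAANNGAA or TGANTCA. RefSeq promoter windows were matched for 7 of the 9 receptors, the other two being Clec4n and Clec10a. A match is a description of the letters only.

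Clec4d encodes a receptor of the same family that pairs with Mincle and also binds trehalose dimycolate. Its signal in experiment 1 was 15010 at 0 h, 16215 at 1 h, 15954 at 3 h, 16088 at 6 h, 16444 at 12 h and 19830 at 24 h, and in experiment 2 it was 17476, 20118, 17415, 17182, 17658 and 23430. The highest value of each experiment was that of 24 h, with log2 ratios to 0 h of 0.40 and 0.42. Both 24 h arrays lay above both 0 h arrays, and the change was called there (log2 change 0.41, SE 0.12, adjusted p = 0.0345). It was kept in 6 of the 22 alternatives. It was lost with no replicate block (adjusted p = 0.223), under quantile normalization (log2 change 0.12, adjusted p = 0.547), and without the 24 h array of experiment 2 or any single array of 0, 1, 3 or 6 h. At 12 h, where Clec4e was at its highest, the log2 change of Clec4d was 0.07 with a 95% interval of -0.20 to 0.35. The probe set of Clec4d is of a design that can match transcripts of more than 1 gene.

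Clec4n encodes a receptor for mannans of fungi that signals through Fcer1g. Its signal in experiment 1 was 28651 at 0 h, 31195 at 1 h, 31093 at 3 h, 32667 at 6 h, 34346 at 12 h and 31036 at 24 h, and in experiment 2 it was 32793, 46113, 36312, 37705, 49131 and 39138. Experiment 2 lay higher at every time, and its 1 h and 12 h arrays stood above the others. The change at 12 h was called (log2 change 0.42, SE 0.14, adjusted p = 0.044). The other probe set of the gene had 31399 and 46314 at 12 h, against 29341 and 31150 at 0 h, and was not called (log2 change 0.33, adjusted p = 0.129). The call was kept in only 4 of 22 alternatives, was lost with no replicate block (adjusted p = 0.355), and under quantile normalization the log2 change was -0.04. Leaving out either 24 h array kept it, and leaving out any other single array lost it. Like that of Clec4d, its lead probe set can match more than 1 transcript.

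**Figure D2:**
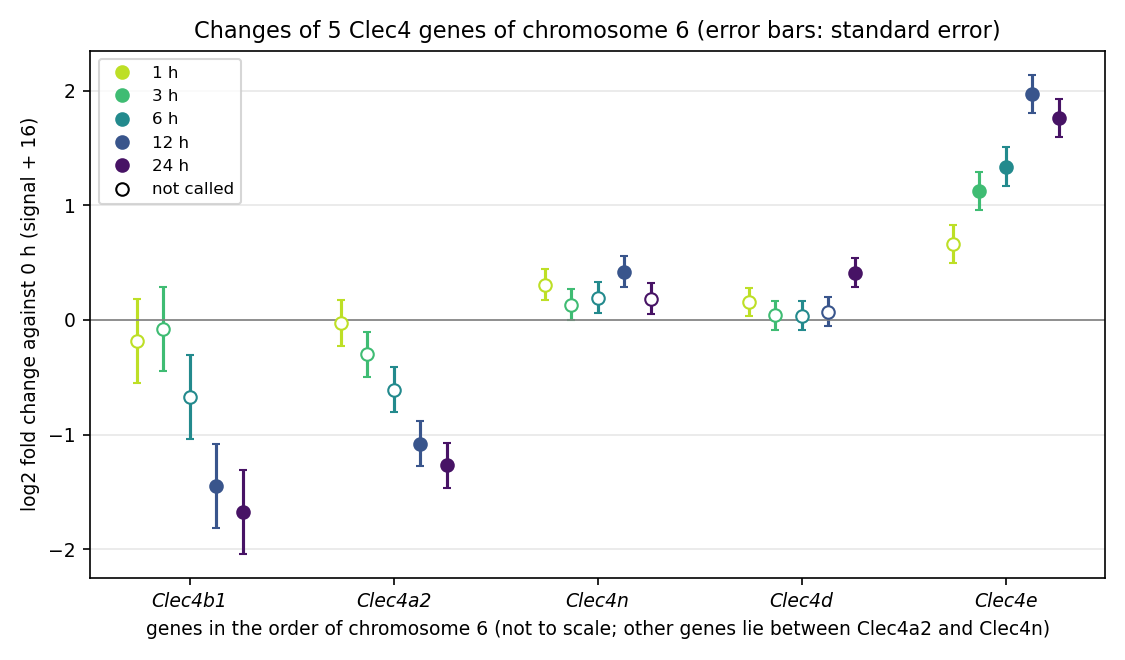
Log2 change from 0 h (vertical axis) of the lead probe sets of the neighbouring Clec4 genes of chromosome 6 at 1, 3, 6, 12 and 24 h, with SE bars from the limma fit and filled points where the change was called. Clec4e rose to 1.97 at 12 h, Clec4d and Clec4n stayed between 0 and 0.5, and Clec4a2 and Clec4b1 fell, to -1.27 and -1.68 at 24 h.

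On the other side of the same gene row, Clec4a2 and Clec4b1, which are not among the 9, fell. Clec4a4 and Clec4b2 were not analysed here. The stretch listed does not hold Clec4a3, a further relative. It had 2783 and 2024 at 12 h and 2601 and 1965 at 24 h, against 2971 and 2675 at 0 h. Clec4a2 encodes DCIR, a receptor with an inhibitory motif in its tail. It had 4306 and 9567 at 12 h, against 11588 and 15929 at 0 h (log2 change -1.08, SE 0.20, adjusted p = 0.00314), and 5133 and 6169 at 24 h (log2 change -1.27, adjusted p = 0.00137). Clec4b1 had 425 and 714 at 12 h, against 1434 and 1632 at 0 h (log2 change -1.45, adjusted p = 0.0154), and 236 and 914 at 24 h (log2 change -1.68, adjusted p = 0.00797). The 24 h change of Clec4b1 was -0.91 on leaving out the 24 h array of experiment 1 and -2.44 on leaving out that of experiment 2, and it was not called without the 0 h array of experiment 1 (adjusted p = 0.0804). Its 12 h call was lost without the 0 h array of experiment 1 or either 12 h array. The genes of the row described here were thus 1 that rose at 3 h and later, a pair with changes under 0.5 and a pair that fell at 12 and 24 h.

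Clec7a encodes the receptor for beta-glucans of fungal walls, which carries its own ITAM-like motif. In experiment 1 its signal was 22990 at 0 h, 25806 at 1 h, 24315 at 3 h, 26043 at 6 h, 26324 at 12 h and 28379 at 24 h. In experiment 2 it was 26075, 34589, 28211, 29049.7, 39613 and 33759. Every later array of an experiment lay above the 0 h array of that experiment, but no change was called. At 12 h the log2 change was 0.40 (SE 0.14, adjusted p = 0.0588, 95% interval 0.087 to 0.711) and at 24 h 0.34 (adjusted p = 0.103, 95% interval 0.026 to 0.650). The 12 h change passed when the 12 h array of experiment 1 was left out (0.57, adjusted p = 0.04) and when either 24 h array was. Under quantile normalization the changes at 12 and 24 h were 0.02 and -0.05.

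The small changes of Clec7a, Clec4n and Clec4d depended on the scaling of the arrays. Each array as deposited has nearly the same trimmed mean, yet the signal at its 99.9th percentile was 33864 and 47823 in the 12 h cells, 33987 and 43792 in the 24 h cells, against 27272 and 30688 in the 0 h cells. Whether the receptor signals follow that percentile was not tested. Quantile normalization, which gives all arrays 1 distribution, moved the 12 h changes of Clec4e to 1.62 and of Clec4d to -0.22. It moved the median of all tested probe sets by 0.14 at 12 h and by 0.13 at 24 h, and centring each array on its median moved it by 0.13 at 24 h. Against that shifted median Clec4e rose under each scaling, while the 12 h changes of Clec7a, Clec4n and Clec4d shrank or turned negative with quantile normalization.

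**Figure D3:**
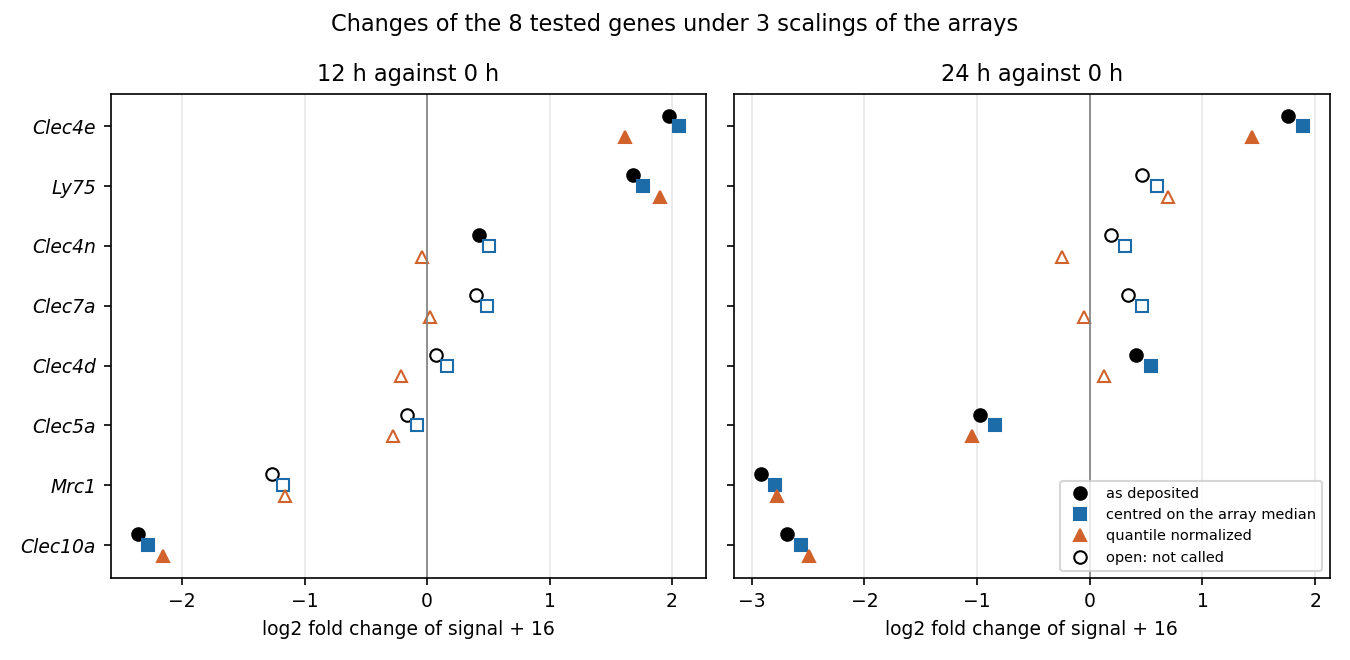
Log2 change from 0 h (horizontal axis) of each receptor at 12 h and at 24 h under the deposited scaling, after centring each array on its median, and after quantile normalization. Clec4e, Ly75, Mrc1 and Clec10a keep their direction under all 3, and Clec4n at 12 h runs from 0.51 after centring to -0.04 after quantile normalization.

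Clec5a encodes a receptor that signals through Tyrobp and is known from myeloid cells infected with dengue virus. In experiment 1 its signal was 3688 at 0 h, 4157 at 1 h, 3608 at 3 h, 4080.3 at 6 h, 4264 at 12 h and 1876 at 24 h. In experiment 2 it was 4452, 5243, 4729.9, 3806, 3048.5 and 2262. Both 24 h arrays lay below all the other arrays, and the log2 ratio to 0 h was -0.97 in each experiment. Clec5a fell at 24 h (log2 change -0.97, SE 0.22, adjusted p = 0.00861). At 12 h the experiments went opposite ways, with log2 ratios of 0.21 and -0.54, and no change was called. The 24 h call was kept in 20 of 22 alternatives and was lost in the fit to the 4 arrays of the comparison alone (adjusted p = 0.0758) and without the 0 h array of experiment 2 (adjusted p = 0.084).

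Among the endocytic receptors, Mrc1 and Clec10a fell and Ly75 rose. Mrc1 encodes the mannose receptor, which takes up glycoproteins with mannose ends. Its signal in experiment 1 was 1750.4 at 0 h, 1363 at 1 h, 1478 at 3 h, 1075 at 6 h, 576 at 12 h and 92.2 at 24 h. In experiment 2 it was 2389.8, 2358, 1759, 1729, 1228 and 673. The lowest array of each experiment was that of 24 h, and both 12 h and 24 h arrays lay below both 0 h arrays. Mrc1 fell at 24 h by 2.92 on the log2 scale (SE 0.46, adjusted p = 0.00147), with log2 ratios of -4.03 in experiment 1 and -1.80 in experiment 2. The direction and the call at 24 h were kept in all 22 alternatives, and the size rested on the array left in, at -1.90 when the 24 h array of experiment 1 was left out and -3.93 when that of experiment 2 was. At 12 h the log2 change was -1.26 (adjusted p = 0.0661), which passed in 4 of 22 alternatives, among them those without either 24 h array.

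Clec10a encodes a lectin for galactose and N-acetylgalactosamine found on macrophages and DC. In experiment 1 its signal was 804 at 0 h, 937 at 1 h, 579.8 at 3 h, 267 at 6 h, 93.2 at 12 h and 92.6 at 24 h. In experiment 2 it was 452, 524, 415, 219, 117 and 69.0. The signal at 6, 12 and 24 h lay below both 0 h arrays in both experiments. Clec10a was 5.15-fold lower at 12 h (log2 change -2.36, adjusted p = 0.000312) and its log2 change was -2.69 at 24 h (adjusted p = 0.000158), and both calls were kept in all 22 alternatives. It was the only receptor of the 9 called lower at 6 h (log2 change -1.26, SE 0.29, adjusted p = 0.031). That call was kept in 13 of 22 alternatives, with a highest adjusted p of 0.312, and was lost with no replicate block and without any single array of 0, 3 or 6 h.

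Cd209a encodes a mouse relative of human DC-SIGN, a lectin for mannose and fucose. Its signal in experiment 1 was 115 at 0 h, 142 at 1 h, 102 at 3 h, 58.9 at 6 h, 10.6 at 12 h and 70.4 at 24 h, and in experiment 2 it was 69.7, 89.7, 99.3, 48.0, 8.71 and 26.2. Its mean log2(signal + 16) was 6.22, below the filter at 6.42, so Cd209a was not tested in the main analysis. Both 12 h arrays were the lowest of the course, and the log2 ratios at 12 h were -2.30 and -1.79. With no filter the 12 h change had an adjusted p of 0.0114.

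Ly75 encodes an endocytic receptor with many lectin domains that feeds both antigen presentation pathways and is known to increase on maturing DC. In experiment 1 its signal was 388 at 0 h, 417 at 1 h, 568 at 3 h, 679 at 6 h, 1577 at 12 h and 434 at 24 h. In experiment 2 it was 329, 312, 419, 499.8, 879.8 and 574. The 12 h arrays were the highest of both experiments and lay above all the others. Ly75 rose at 12 h (log2 change 1.68, SE 0.27, adjusted p = 0.00143, with log2 ratios of 1.98 and 1.38), and the call was kept in all 22 alternatives. Its 6 h change of 0.68 was not called (adjusted p = 0.178), but was when either 24 h array was left out. At 24 h it was 0.46 above 0 h on the log2 scale without passing the test (adjusted p = 0.229), with log2 ratios of 0.16 and 0.77. Without the 24 h array of experiment 1 this change was 0.89 with an adjusted p of 0.00994.

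Ly75 was the only receptor called between neighbouring times. It was lower at 24 h than at 12 h (log2 change -1.21, SE 0.27, adjusted p = 0.0371), where 4.11% of all tested probe sets were called in either direction. That call was lost with no filter, with no replicate block, with no intensity trend, and without any single array of 0, 1, 3, 6 or 12 h. From 1 to 3 h, 3 to 6 h and 6 to 12 h no member was called, against 0.933%, 0.613% and 1.77% of all tested probe sets called in either direction, and limma gave an unadjusted p under 0.05 for 1, 1 and 4 of the 10, against 7.26%, 9.75% and 16.7% of all tested probe sets. Both probe sets of Clec4e were among those 4.

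**Figure D4:**
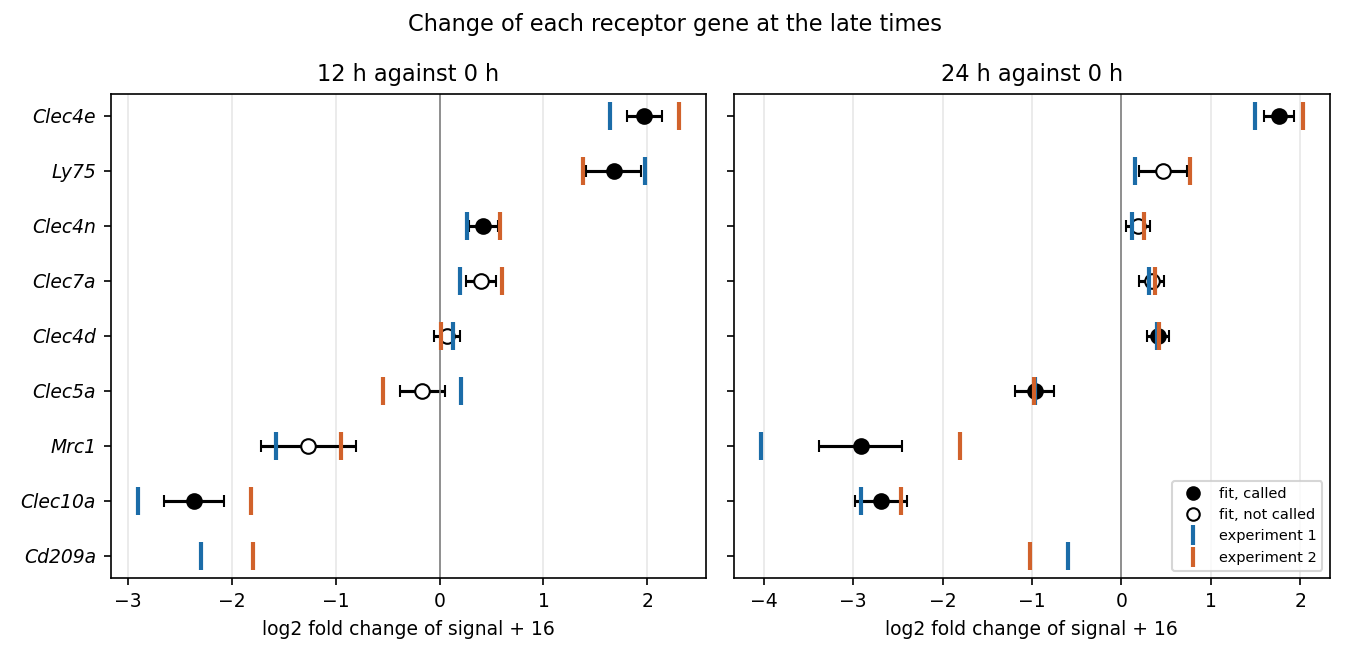
Log2 change (horizontal axis) at 12 h and at 24 h against 0 h for each receptor. The points are the limma estimates with SE bars and the tick marks are the ratios within experiment 1 and experiment 2. Cd209a, which was not tested, has tick marks only. Clec4e has the highest limma estimate at both times, though in experiment 1 at 12 h the ratio of Ly75, 1.98, lay above that of Clec4e, 1.64. Mrc1 at 24 h has the widest gap between the experiments, -4.03 and -1.80.

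The promoter windows of Mrc1 (chr2:14229164-14229413, plus strand) and Ly75 (chr2:60383274-60383523, minus strand) are shown as those of endocytic receptors that changed in opposite directions. Capitals again mark GAGGAA and TTGCNNAA in either orientation.

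Mrc1: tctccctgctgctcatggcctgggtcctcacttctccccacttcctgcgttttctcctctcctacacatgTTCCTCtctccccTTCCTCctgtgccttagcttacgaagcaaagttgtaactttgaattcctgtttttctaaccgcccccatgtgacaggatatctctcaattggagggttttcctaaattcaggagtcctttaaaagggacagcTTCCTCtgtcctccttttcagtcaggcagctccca
Ly75: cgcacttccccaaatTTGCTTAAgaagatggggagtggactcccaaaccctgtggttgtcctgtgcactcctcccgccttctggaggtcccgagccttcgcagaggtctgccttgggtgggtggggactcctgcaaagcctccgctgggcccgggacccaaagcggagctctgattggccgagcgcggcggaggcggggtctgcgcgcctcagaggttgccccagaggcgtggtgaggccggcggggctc

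The Mrc1 window held GAGGAA 3 times, 180, 167 and 35 bases before the start, and no other motif. The Ly75 window held TTGCNNAA 1 time, 235 bases before the start, and no GAGGAA. Windows with GAGGAA were also those of Clec7a (1 match) and Clec5a (2 matches), while that of Cd209a held none of the motifs.

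Other C-type lectins and relatives were drawn from a list of 37 genes, of which 32 had a probe set of their own and 19 passed the filter. At 3 h 1 of 19 was called higher, against 1.25% of all tested genes, and at 6 h 2, against 4.25%. The counts were, at 12 h, 4 higher and 6 lower, and at 24 h 3 higher and 6 lower. Of all tested genes, 10.4% were called higher and 20.2% lower at 12 h, and 11.3% and 16.8% at 24 h. The median of the 19 was 0.13 at 12 h and -0.32 at 24 h. Cd69, an early activation antigen of lymphocytes and myeloid cells, was the one called at 3 h (log2 change 4.97, SE 0.38, adjusted p = 6.5e-05), and its change was 5.85 at 12 h and 4.74 at 24 h. The other gene called at 6 h was Clec2d, with 5796 and 597 at 6 h in the 2 experiments (log2 change 3.89, SE 0.76, adjusted p = 0.0147). Those higher at 12 h were Cd69, Clec2d, the B cell and myeloid coreceptor Cd72 and Olr1, the receptor for oxidised low-density lipoprotein (log2 change 0.87, adjusted p = 0.00487). At 24 h Cd69, Cd72 (1.33, adjusted p = 0.00589) and Clec1b (0.94, adjusted p = 0.0121) were higher. The 6 h call of Clec2d was lost without the 0 h or the 6 h array of experiment 1 (adjusted p = 0.202 and 0.197), and its 12 h call without the 0 h array of experiment 1 or either 12 h array. The 12 h call of Cd72 was kept in 11 of 22 alternatives, that of Olr1 was lost without the 0 h or the 12 h array of experiment 2, and the 24 h call of Clec1b was lost without either 0 h array.

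The lectins that fell at both 12 and 24 h were Clec4a2, Clec4b1, Clec1a, Mgl2 and Cd93. Mgl2, the close homologue of Clec10a, had a log2 change of -0.85 at 12 h (adjusted p = 0.0136) and -1.24 at 24 h (SE 0.21, adjusted p = 0.00209). Cd93, a receptor with a C-type lectin domain linked to the clearance of dying cells, had -1.56 (adjusted p = 0.000666) and -1.67 (adjusted p = 0.000472). The galactose lectins Clec10a and Mgl2 thus both fell, as did the asialoglycoprotein receptor subunit Asgr2 at 24 h (log2 change -2.03, adjusted p = 0.0115). The change of Asgr2 was -1.24 without the 24 h array of experiment 1, and was not called without the 0 h array of experiment 1 (adjusted p = 0.105). The calls of Clec1a at both times and that of Mgl2 at 12 h were lost without either 0 h array, that of Mgl2 also without either 12 h array, and the 12 h call of Clec1a when experiment 1 lacked its 12 h array. With 1 array left out, 2 to 7 of the 19 were lower at 12 h and 3 to 8 at 24 h. The sequences of Clec10a and Mgl2 are alike, and how far their probe sets share signal was not tested.

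Of 27 adaptors, kinases and mediators listed for signalling by these receptors, 22 genes were tested. None was called at 1 or 3 h, Ptpn6 was called higher and Vav2 lower at 6 h, 4 were higher and 3 lower at 12 h, and 4 were higher and 4 lower at 24 h. Of all tested genes, 4.25% were called higher and 2.25% lower at 6 h. The shares were 10.4% higher and 20.2% lower for 12 h, and 11.3% higher and 16.8% lower for 24 h. With 1 array left out, 0 to 11 of the 22 were lower at 24 h and 1 to 6 at 12 h. The calls at 6 h were lost without any single array of 0 or 6 h. The median of the 22 was -0.17 at 12 h and -0.30 at 24 h. Fcer1g, the adaptor of Clec4e, Clec4d and Clec4n, had a log2 change of 0.48 at 12 h (SE 0.13, adjusted p = 0.02) and 0.68 at 24 h (adjusted p = 0.00409). The 12 h change of Fcer1g was 0.17 under quantile normalization (adjusted p = 0.325), and its call was also lost without either 0 h array or the 12 h array of experiment 2. Tyrobp, the adaptor of Clec5a, had a log2 change of 0.35 at 12 h without passing the test (adjusted p = 0.124), and Syk had 0.01 at 12 h and -0.23 at 24 h, neither of them called.

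The phosphatase Ptpn6, which restrains ITAM signals, rose by 1.46 at 12 h on the log2 scale (SE 0.18, adjusted p = 0.000337). The kinase Src rose by 1.31 (adjusted p = 0.00309) and the calcium channel Itpr2 by 1.31 (adjusted p = 0.00442). By 24 h the signal of Itpr2 was 3392 and 3675, against 343 and 344 at 0 h. Ptpn6 had 5118 and 4683 at 24 h, against 2244 and 2713, and Src had 1098 and 737, against 375 and 445. The 24 h change of Src was 0.87 without the 0 h array of experiment 1. Those that fell at 12 h were the exchange factor Vav2 (-1.26, adjusted p = 0.00395), the kinase Fgr (-0.56, adjusted p = 0.0421) and the transcription factor Nfatc2 (-1.37, adjusted p = 0.00531). At 24 h the genes that fell were Fgr, the phospholipase Plcg2 (2.003-fold lower, adjusted p = 0.00508), Bcl10 (-0.67, adjusted p = 0.0139), which links these receptors to NF-kB, and Ptpn11 (-0.94, adjusted p = 0.0414). The call of Ptpn11 was kept in 5 of 22 alternatives, and its change was -1.57 on leaving out the 24 h array of experiment 1 and -0.31 on leaving out that of experiment 2. That of Fgr at 12 h was kept in 6 of 22, with a change of -0.38 without the 0 h array of experiment 2. Bcl10 was not called without either 0 h array, nor were Plcg2 and, at 24 h, Fgr without the 0 h array of experiment 2, nor Nfatc2 without the 0 h or the 12 h array of experiment 2.

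The time courses of the receptors were compared with each other over the 12 arrays, after taking each experiment's mean from the log2 signal. Clec7a and Clec4n ran together (Pearson r = 0.89), as did Mrc1 with Clec10a (0.82) and with Clec5a (0.82), and Cd209a and Ly75 ran opposite (-0.93). Cd209a did not pass the filter, and its signals of 10.6 and 8.71 at 12 h lay under the 16 added before the log. Clec4e ran against Clec10a (-0.83) and with Ly75 (0.75). These values are descriptions over arrays that share mice, times and scaling, and have no test.

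Among 10998 other genes, those nearest to Clec4e were Slfn2 (r = 0.966), Rnf114 (0.965) and Tbk1 (0.962), and those nearest to Mrc1 were F13a1 (0.994), Fn1 (0.989) and F2rl2 (0.988). Clec10a was nearest to Noct (0.988), Taf2 (0.984) and Fh1 (0.983), and Ly75 to Rasgrp1 (0.963), Etv3 (0.952) and Ddhd1 (0.948). Clec7a was nearest to Tpt1 (0.984), Lyz2 (0.976) and Psap (0.962), and Clec4n to Actg1 (0.959), Lpl (0.947) and Mmp12 (0.939). Clec4d was nearest to Pex16 (0.926), Zfp438 (0.925) and Stx5a (0.918), and Clec5a to Mau2 (0.956), Gpr85 (0.952) and Pid1 (0.947). Cd209a, with its signal below the filter, was nearest to Ylpm1 (0.983), Hspa9 (0.979) and Ddx56 (0.978). All of these were picked as the highest values among many genes, so they are high in part by that choice. They too come from arrays that share mice, times and scaling, and have no test.

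Of 8 listed DC markers, 6 passed the filter, with Itgax, the CD11c gene, between 16176 and 24684 over the 12 arrays, and Flt3 and Dpp4 below it. None of the 6 was called at 12 h, and at 24 h none was higher and 1 was lower, Irf4, with 1364 and 458 at 24 h, against 2305 and 3219 at 0 h (log2 change -1.76, adjusted p = 0.0133). The shares of all tested genes were 10.4% higher and 20.2% lower at 12 h, and 11.3% and 16.8% at 24 h. The median log2 change of the 6 was 0.28 at 12 h and -0.17 at 24 h. The summed signal of the DC markers, which adds probe sets that are not on a common scale and is carried by the brightest of them, was 72493 to 78206 at 12 h and 65096 to 78859 at 24 h, against 55083 to 64000.4 at 0 h. All 5 measured markers of macrophages and monocytes passed the filter, and their sum, with the same limits of scale, was 49334 to 63406 at 12 h and 43603 to 60406 at 24 h, against 38412 to 39715 at 0 h. Of these, Fcgr1 and Mertk were called higher at 12 h (log2 changes 2.64 and 2.17, adjusted p = 1.19e-05 and 0.000221). At 6 h and at 24 h also 2 of the 5 were higher, against 4.25% and 11.3% of all tested genes. Csf1r, at 22071 to 32347, Adgre1 and Cd14 were not called. Adgre1 had 2062 and 2860 at 12 h, against 2573 and 3406 at 0 h. Cd14 had 12945 and 5998 at 12 h, against 9843 and 8845 at 0 h. The median log2 change of the 5 was 0.25 at 12 h and 0.04 at 24 h. The part of cells of the macrophage kind in the receptor changes was not tested. None of 4 T cell, 2 NK cell, 3 mast cell and basophil or 2 erythroid markers passed the filter, and 1 of 3 for B cells and 2 of 7 for neutrophils did. The median signal of the arrays lay between 70.9 and 91.4, with 19.5% to 23.1% of probe sets below 16.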

How the data were processed

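Transcripts were measured on 12 Affymetrix Mouse 430 2.0 arrays, 2 per time, each from a separate experiment on the DC of 1 mouse, so n = 2 limits precision. The intensity values were deposited on a linear scale, made by the authors with MAS5.0, and each array has a mean of about 500 once its top and bottom 2% are left out. The table holds 45101 probe sets, of which 64 are controls. Of the other 45037, the platform annotation gives 34945 1 gene symbol, 932 several and 9160 none.

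In R 4.3.3, limma 3.58.1 took log2(intensity + 16) of all arrays with terms for time and experiment, an intensity trend, and 5 residual and 5.22 prior degrees of freedom. A filter on mean log2 signal at its median kept 22519 probe sets, whose p-values were adjusted by Benjamini-Hochberg, with calls at 0.05. The fit was tested on simulated data. A gene's lead probe set is that with the highest mean. The experiments pair the arrays, since the methods of the study describe them as run and hybridised apart, and arrays of 1 experiment deviated together from the time means (r = 0.25 to 0.66 across probe sets, median 0.57, for 15 pairs of times).

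The receptors and lists were chosen with earlier results of these data known. The genes named are all 9 receptors, the 3 genes nearest to each, and in a list up to 4 genes with the smallest p at 12 h among those called, or every gene of a count of 5 or fewer. Other list genes named, such as Syk, Tyrobp and the Clec4 neighbours, were chosen after their values were seen. In the lists, 17 genes had no probe set of their own and were not analysed here. Alternatives were pseudocounts of 1 and 64, no filter or one at the 25th percentile, median centring, quantile normalization, no replicate block, no trend, only the 4 arrays of a comparison, and leaving out each array. Leaving out both 1 h arrays was chosen after seeing the data. Figures were drawn with matplotlib 3.10.9.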

Additional observations from a re-analysis of the deposited data

How the results depend on the processing

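The counts of receptor probe sets called moved mainly where few were called. With no replicate block, 0 were higher at 3 h, 0 lower at 6 h and 0 called between 12 and 24 h, against 2, 1 and 1 with it. With no intensity trend, 0 were higher at 3 h and 0 were called between 12 and 24 h. With no filter, 0 were lower at 6 h, 2 lower at 12 h and 0 called between 12 and 24 h. Quantile normalization gave 0 lower at 6 h, and a pseudocount of 64 or a filter at the 25th percentile gave 2 lower at 12 h. Leaving out both 1 h arrays gave 0 between 12 and 24 h. With only the 4 arrays of each comparison, 2 were higher at 1 h, 2 lower at 6 h and 2 lower at 12 h, and 2, 2 and 5 were called between 1 and 3, 3 and 6, and 6 and 12 h.

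Leaving out 1 array at a time gave 0 to 2 higher at 3 h, 2 to 3 at 6 h, 3 to 6 at 12 h and 2 to 4 at 24 h, 0 to 1 lower at 6 h, 1 to 2 at 12 h and 2 to 3 at 24 h, and 0 to 5 called between 6 and 12 h and 0 to 4 between 12 and 24 h. Those 5 were found without either 24 h array, and the 4 without the 24 h array of experiment 2. Of the receptor changes called, the only one to change direction in any of the 22 alternatives was Clec4n at 12 h, -0.043 under quantile normalization. Changes that were not called also turned negative there, such as Clec4n at 24 h (-0.25), Clec4d at 12 h (-0.22), Clec7a at 24 h (-0.05) and the other probe set of Clec4n at 12 h (-0.15). For all tested probe sets, 34.6% of the calls at 24 h were higher as deposited, against 47.1% after median centring and 42.6% after quantile normalization.

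There were 2 experiments and no treatment control at later times. The fit has a term for the experiment, so a constant difference between the 2 cultures is not in the spread behind the p-values. That spread is how far the time courses of the 2 experiments differed, pooled over all times and moderated across probe sets. The probe set of Cd209a had a low signal, and the small changes of Clec4d, Clec4n and Clec7a depended on the scaling. The second probe set lower at 12 h was that of Cd209a with no filter or one at the 25th percentile (limma adjusted p = 0.0114 and 0.0053). With a pseudocount of 64 it was that of Mrc1 (adjusted p = 0.0348). Why the counts otherwise moved was not tested.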

Other observations

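Genes of alternative activation, a state in which Mrc1, Clec10a and Mgl2 are often high, were counted as a list of 16 genes, of which 12 were tested. None was called at 1 or 3 h. Of all tested genes, 4.25% were called higher at 6 h. For 12 h the shares were 10.4% higher and 20.2% lower, and for 24 h 11.3% higher and 16.8% lower. Ccl22, a chemokine that draws T helper and regulatory T cells, was the only one called at 6 h, where it was higher (log2 change 0.71, adjusted p = 0.0176). It was also higher at 12 h (1.31, SE 0.14, adjusted p = 0.000167) and at 24 h (0.81, adjusted p = 0.00277).

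At 12 h 3 of the 12 were lower, a number that ran from 0 to 6 with 1 array left out, and at 24 h 2 were, near the share of all genes. Arg1, which breaks down arginine, had 28.8 and 1288 at 12 h, against 267 and 2307 at 0 h, so that the experiments differed in level at both times (log2 change -1.75, adjusted p = 0.0108). That change was -0.94 without the 12 h array of experiment 1 (adjusted p = 0.0829), and was not called without the 0 h array of experiment 1. Its log2 change at 24 h was -0.04. The secreted protein Retnla (-1.06, adjusted p = 0.0395) and Mgl2 were the others, and the call of Retnla was kept in 7 of 22 alternatives, with a highest adjusted p of 0.53. At 24 h Il4ra, the interleukin receptor chain that drives this state, was higher (0.79, adjusted p = 0.0118), and Fn1 (-2.14, SE 0.41, adjusted p = 0.00447) and Mgl2 were lower. Fn1 had -1.18 without the 24 h array of experiment 1 and was not called without the 0 h array of experiment 1, Il4ra was not called without either 0 h array, and Ccl22 at 6 h was not called without any single array of 0 or 6 h. The median of the 12 was -0.44 at 12 h and -0.01 at 24 h.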
